A study of Mus musculus with 29 samples.

Results

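AMPA-type and metabotropic glutamate receptor genes were followed in mouse embryonic stem cells and in the neural cells made from them, in a wild-type line and in a line labelled BERKO, a knockout of estrogen receptor beta (gene Esr2). Members were 8 named genes, the AMPA receptor subunits Gria1, Gria2, Gria3 and Gria4 and the metabotropic receptors Grm3, Grm5, Grm7 and Grm8, taken from array rows annotated with a single gene symbol. Such a row existed for 7 of the 8, out of 30142 genes with a single-symbol row, and each of the 7 had 1 transcript cluster. The only row naming Grm8 also named a microRNA, so no value is given for it. All 7 passed the filter on low values that left 22063 genes for testing. Gria4 and Grm3 were chosen by their excess in BERKO precursors over WT precursors in these arrays. Untreated precursor values are taken as those that chose them, and that difference is described for them without a test. LY3201-treated precursors come from the same lines and stages, so the difference of both genes there is not independent of the choice. For Gria4 and Grm3 the genotype tests rest on stem cells and on the last stage. The other members are also tested in precursors of both treatments and in the steps between untreated stages.

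AMPA receptors are tetrameric cation channels that open when glutamate binds and carry most fast excitatory transmission, and they are also found on astrocytes and on oligodendrocyte precursors. The Gria2 subunit, once its transcript is edited, keeps calcium out of the channel, and Gria1, Gria3 and Gria4 subunits lack that property. Metabotropic receptors act through G proteins: Grm5 belongs to group I, which couples to phospholipase C, Grm3 to group II, and Grm7 and Grm8 to group III, both of which lower cyclic AMP. Grm3 and Grm5 are known from astrocytes as well as neurons, and Grm7 chiefly from presynaptic terminals.

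The 29 samples, 1 array each, fell into 14 groups. Embryonic stem cells (mESC) were BERKO or WT and untreated. Neural precursor cells (NPC), midbrain neural precursors (mDPC) and cells labelled mature midbrain neurons (MN) were each BERKO with LY3201, BERKO untreated, WT with LY3201 or WT untreated. LY3201 is an agonist selective for estrogen receptor beta. NPC and mDPC received it at 0.5 nM for 4 days or else the vehicle DMSO, and the length of treatment in MN is not given in the sources used here. Groups held 2 arrays, except untreated BERKO MN with 3. Cultures had no feeder cells at any stage, and mDPC medium held FGF8b and Shh. How the BERKO line was made and whether each line was 1 clone are not given in the sources used here. Titles of both BERKO mESC arrays share a number, as do those of both LY3201-treated WT NPC arrays, so these pairs may each be 1 culture, although the design text counts all arrays as biological replicates. Replicate numbers below only name the arrays of a group.

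Values are log2 signals, and a value is called above background where it exceeds the 95th percentile of the negative control probes on its own array, which lay between 6.63 and 7.66. Esr2 went against the label: its signal was 3.8 to 4.46 (median 4.23) in the 15 BERKO arrays and 3.21 to 3.47 (median 3.33) in the 14 WT arrays, all below background, and the labels do not say which part of the gene was deleted. WT and BERKO therefore name arrays as labelled throughout. Of the markers checked, all 7 for dopaminergic neurons and all 4 for microglia stayed below background on every array, and 2 of 8 neuronal markers, Rbfox3 and Elavl4, did so too. The neuronal markers Stmn2, Tubb3, Dcx and Map2 were above background on every MN array, Stmn2 at 10.14 to 13.85. Stmn2 was higher still in mESC, at 15.92 to 16.05. Snap25 and Syt1 were below background on every BERKO MN array, at 4.81 to 4.98 and 5.23 to 5.36. Both were also below background on replicate 1 of WT MN, untreated (6.36 and 6.0) and LY3201-treated (5.89 and 5.55). They were above it on replicate 2 of WT MN, untreated (9.62 and 8.87) and LY3201-treated (7.61 and 7.45). The astrocyte marker Gfap was 18.78 to 19.0 on the MN arrays.

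In precursors, Gria4, Grm3, Gria2 and Gria3 were higher in BERKO than in WT at both stages and with both treatments, and Grm5 was called higher at the NPC stage and not in mDPC. Grm7 was higher in BERKO mDPC and MN. Gria4 and Grm3 stayed higher in BERKO MN, where Gria2 and Gria3 showed no called difference. No member was called in mESC. With LY3201, 5 of 7 members were called higher and none lower in BERKO NPC, where 4.56% of all genes were called higher and 5.81% lower. The counts were 5 higher and none lower in LY3201-treated mDPC (7.23% of all genes higher and 8.1% lower), and 4 higher and none lower in LY3201-treated MN (9.01% higher and 10.6% lower). Untreated arrays gave 5 higher and none lower in NPC (10.6% of all genes higher and 5.08% lower), 5 higher and none lower in mDPC (8.51% and 5.32%), and 3 higher and 1 lower in MN (13.5% and 7.31%). In the precursor counts of both treatments Gria4 and Grm3 are included by choice, and nothing is read from them there. In untreated mESC 0 of 7 were called by limma and none had an unadjusted p under 0.05, where 1.68% of all genes were called higher and 2.53% lower. The median difference of the 7 members was 1.43 in LY3201-treated NPC, 1.63 in mDPC and 0.82 in MN, where the median over all genes tested was -0.02, -0.02 and -0.04. The NPC and mDPC medians likewise include Gria4 and Grm3 by choice.

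**Figure D1:**
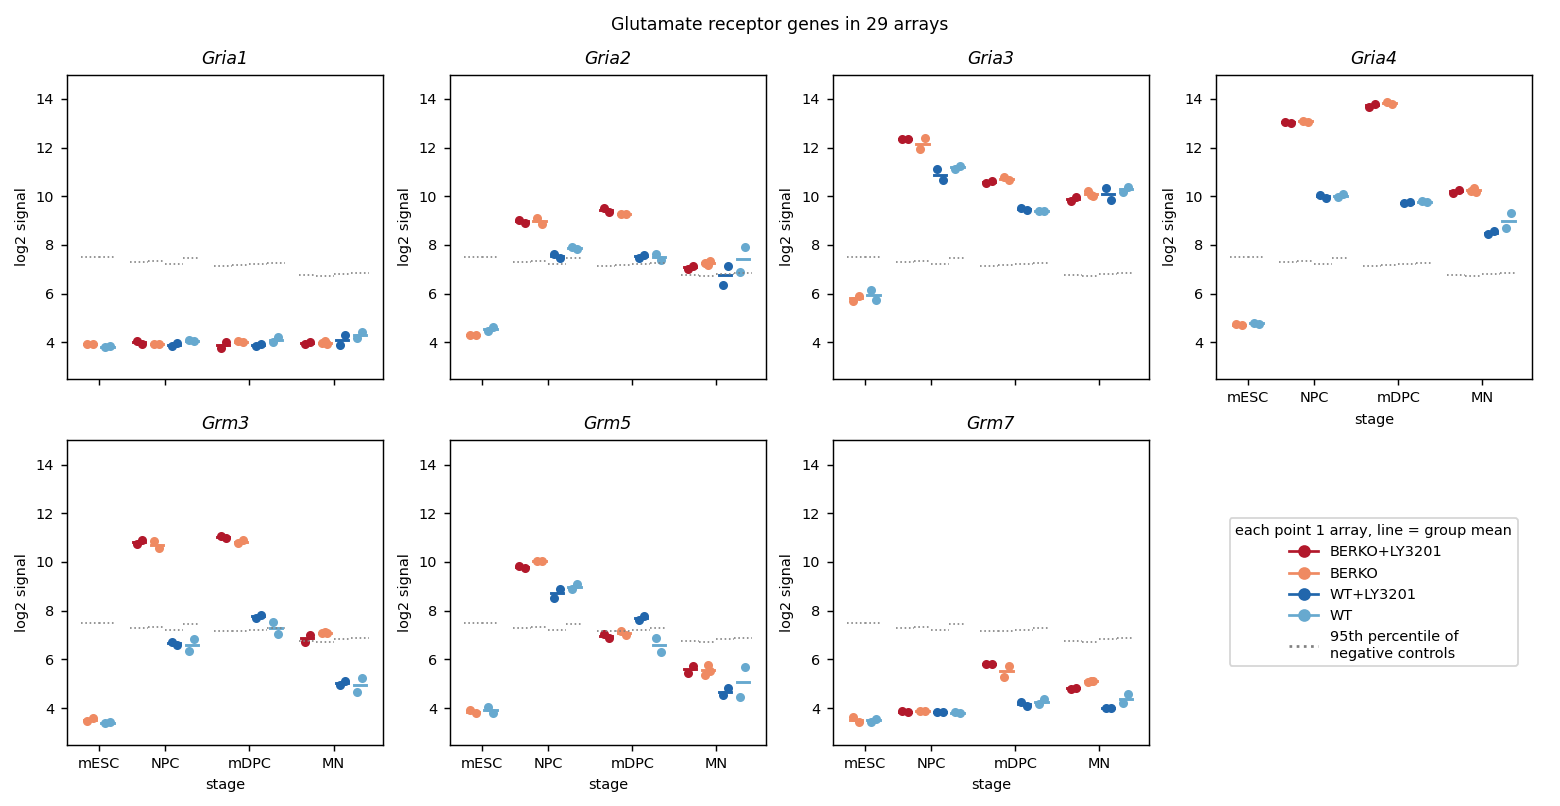
Log2 signal of the 7 glutamate receptor genes in all 29 arrays, by stage, with each point 1 array and each short line a group mean; within a stage groups run BERKO with LY3201, BERKO, WT with LY3201, WT. Dotted lines mark the mean 95th percentile of negative control probes per group. Gria4 and Grm3 show BERKO points far above WT points in NPC and mDPC, and Gria1 lies below the dotted line throughout.

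Gria4 encodes the AMPA receptor subunit with fast gating kinetics. In LY3201-treated NPC its signal was 13.07 and 12.99 in BERKO arrays, against 10.06 and 9.94 in WT arrays. Groups lay far apart, and the difference was 3.03 ± 0.13 (SE, adjusted p = 9.54e-12). LY3201-treated mDPC gave 13.66 and 13.81 in BERKO arrays, against 9.71 and 9.75 in WT arrays, a difference of 4.01 ± 0.13 (adjusted p = 1.29e-13). Since a precursor excess chose the gene, the p-values of LY3201-treated NPC and mDPC are descriptions only. In LY3201-treated MN the signal was 10.13 and 10.27 in BERKO arrays, against 8.44 and 8.56 in WT arrays. That is a difference of 1.70 ± 0.13 (adjusted p = 2.14e-08), below the one in precursors but still without overlap. Untreated MN had 10.22, 10.33 and 10.19 in BERKO arrays, against 8.68 and 9.32 in WT arrays, a difference of 1.25 ± 0.12 (adjusted p = 2.67e-07). The values that chose the gene were 13.11 and 13.05 in BERKO NPC, against 9.95 and 10.08 in WT NPC, and 13.89 and 13.77 in BERKO mDPC, against 9.79 and 9.75 in WT mDPC. Stem cells of both lines were below background, at 4.76 and 4.7 in BERKO and 4.79 and 4.76 in WT, with a difference of -0.05 (95% interval -0.33 to 0.23). In these bulk samples fewer cells of a type and less RNA per cell cannot be told apart, for Gria4 and for each gene that follows.

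Grm3 encodes a group II metabotropic receptor found on neurons and glia. LY3201-treated NPC had 10.75 and 10.89 in BERKO arrays, against 6.73 and 6.58 in WT arrays. WT NPC arrays were below background, so the difference of 4.17 ± 0.18 (adjusted p = 9.54e-12) stands for at least 12.2-fold. A bound of this kind sets the mean of the brighter group against the background level of the dimmer group's arrays, and applies wherever "at least" is written. It takes no account of the spread between arrays. In LY3201-treated mDPC both groups were above background, with 11.06 and 11 in BERKO arrays and 7.71 and 7.83 in WT arrays, a difference of 3.26 ± 0.18 (adjusted p = 1.73e-10). For Grm3 too the p-values of LY3201-treated NPC and mDPC are descriptions only. In LY3201-treated MN the signal was 6.71 and 7.01 in BERKO arrays, against 4.95 and 5.1 in WT arrays. The BERKO value of 6.71 was below background, 7.01 was above it, and both WT values were under it. The difference was 1.84 ± 0.18 (adjusted p = 5.52e-07), and no least fold is given. Untreated MN had 7.08, 7.11 and 7.07 in BERKO arrays, against 4.64 and 5.25 in WT arrays, a difference of 2.14 ± 0.17 (adjusted p = 1.35e-08) and at least 1.17-fold. The values that chose the gene were 10.86 and 10.56 in BERKO NPC, against 6.34 and 6.82 in WT NPC, and 10.76 and 10.89 in BERKO mDPC, against 7.53 and 7.06 in WT mDPC. Stem cells were below background in both lines, between 3.39 and 3.58.

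Promoter windows are shown for Gria4, Grm3 and Gria2, the genes with the clearest difference between the lines in LY3201-treated precursors that have an entry in the RefSeq promoter table (GRCm38.p6). Each holds the 250 bases before the annotated start, 5′ to 3′ on the gene's own strand, with CpG dinucleotides in capitals. They lie at chr9:4796235-4796484 (minus strand), chr5:9725353-9725602 (minus strand) and chr3:80802836-80803085 (minus strand).
Gria4: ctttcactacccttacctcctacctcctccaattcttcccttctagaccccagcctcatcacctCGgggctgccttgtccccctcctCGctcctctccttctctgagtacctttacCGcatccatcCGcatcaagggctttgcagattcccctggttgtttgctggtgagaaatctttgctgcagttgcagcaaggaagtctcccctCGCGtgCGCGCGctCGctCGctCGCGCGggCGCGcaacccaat
Grm3: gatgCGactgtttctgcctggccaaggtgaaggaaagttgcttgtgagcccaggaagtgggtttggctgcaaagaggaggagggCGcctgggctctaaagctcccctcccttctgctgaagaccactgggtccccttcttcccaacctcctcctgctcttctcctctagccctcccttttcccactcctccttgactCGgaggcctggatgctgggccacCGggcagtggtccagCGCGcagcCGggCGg
Gria2: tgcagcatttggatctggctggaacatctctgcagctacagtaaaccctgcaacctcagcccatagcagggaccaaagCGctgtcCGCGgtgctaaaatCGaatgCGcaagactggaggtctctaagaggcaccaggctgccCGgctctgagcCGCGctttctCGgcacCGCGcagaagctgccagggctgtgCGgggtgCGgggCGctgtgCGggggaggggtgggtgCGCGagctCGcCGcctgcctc
Gria4 held 16 CpG, Grm3 8 and Gria2 19, where the median over 32851 windows of this length was 6. Neither the estrogen response element GGTCANNNTGACC nor its half-site GGTCA was found on either strand of any of the 3 windows. The half-site lies within the full element, and 35.2% of all windows hold the half-site and 0.0639% the full element. These letters were sought only in the bases shown. An entry existed for 5 of the 8 members.

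Gria2 and Gria3 encode AMPA receptor subunits, Gria2 being the one that controls calcium entry. Gria2 in LY3201-treated NPC was 9.03 and 8.92 in BERKO arrays, against 7.62 and 7.48 in WT arrays, a difference of 1.43 ± 0.23 (adjusted p = 0.00029). In LY3201-treated mDPC it was 9.5 and 9.34 in BERKO arrays, against 7.46 and 7.6 in WT arrays, a difference of 1.89 ± 0.23 (adjusted p = 7.22e-06). The lines did not overlap at either stage. Untreated arrays gave 9.12 and 8.85 in BERKO NPC, against 7.92 and 7.84 in WT NPC (1.11 ± 0.23, adjusted p = 0.00232), and 9.29 and 9.28 in BERKO mDPC, against 7.63 and 7.4 in WT mDPC (1.77 ± 0.23, adjusted p = 1.77e-05). In MN the groups overlapped. Untreated MN had 7.25, 7.18 and 7.32 in BERKO arrays, against 6.9 and 7.91 in WT arrays, and LY3201-treated MN had 7.02 and 7.15 in BERKO arrays, against 6.36 and 7.13 in WT arrays. The differences there were -0.15 (95% interval -0.60 to 0.29) and 0.34 (-0.14 to 0.83). The WT MN values of 6.9 and 6.36 were below background. The untreated WT mDPC values of 7.63 and 7.4 lay just above it, where background was 7.20 to 7.34. The untreated Gria2 difference became -0.66 (adjusted p = 0.0233) without WT MN replicate 1 and 0.35 (adjusted p = 0.274) without WT MN replicate 2.

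Gria3 was 12.34 and 12.37 in LY3201-treated BERKO NPC, against 11.1 and 10.65 in LY3201-treated WT NPC, a difference of 1.48 ± 0.17 (adjusted p = 6.9e-06). LY3201-treated mDPC had 10.54 and 10.61 in BERKO arrays, against 9.51 and 9.43 in WT arrays, a difference of 1.10 ± 0.17 (adjusted p = 0.000137). Again no BERKO precursor array fell among the WT arrays of its stage. Untreated arrays gave 11.94 and 12.38 in BERKO NPC, against 11.12 and 11.26 in WT NPC (0.97 ± 0.17, adjusted p = 0.000614), and 10.77 and 10.65 in BERKO mDPC, against 9.4 and 9.41 in WT mDPC (1.30 ± 0.17, adjusted p = 2.27e-05). In MN the lines were close. Untreated MN had 10.23, 10.05 and 10.03 in BERKO arrays, against 10.16 and 10.4 in WT arrays, and LY3201-treated MN had 9.82 and 9.95 in BERKO arrays, against 10.35 and 9.85 in WT arrays. The differences of -0.17 (95% interval -0.51 to 0.16) and -0.22 (-0.58 to 0.15) were not called. In mESC both genes were below background in both lines, at 4.29 and 4.29 in BERKO and 4.47 and 4.64 in WT for Gria2, and at 5.69 and 5.91 in BERKO and 6.15 and 5.75 in WT for Gria3.

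Grm5, the group I receptor that releases calcium from internal stores, was called higher in BERKO NPC under both treatments. LY3201-treated NPC had 9.84 and 9.76 in BERKO arrays, against 8.54 and 8.88 in WT arrays, a difference of 1.09 ± 0.27 (adjusted p = 0.0115). Untreated NPC had 10.06 and 10.05 in BERKO arrays, against 8.87 and 9.08 in WT arrays, a difference of 1.08 ± 0.27 (adjusted p = 0.00896). Both calls rest on single arrays. The treated one was lost without WT replicate 1 (0.92, adjusted p = 0.121), BERKO replicate 1 (1.05, 0.0837) or BERKO replicate 2 (1.13, 0.0613), and the untreated one without WT replicate 1 (0.98, 0.0897) or BERKO replicate 2 (1.08, 0.0546). In LY3201-treated mDPC the order was turned, with 7.05 and 6.89 in BERKO arrays, against 7.63 and 7.79 in WT arrays, a difference of -0.74 ± 0.27 that was not called (adjusted p = 0.0728). The 95% interval of this difference was -1.31 to -0.18. These BERKO arrays were below background. Against that level the mean of the WT arrays was 1.47-fold higher, with the spread of the arrays not counted, so no least fold is given. Untreated mDPC had 7.18 and 7.0 in BERKO arrays, against 6.89 and 6.31 in WT arrays (0.49 ± 0.27, adjusted p = 0.282). In MN every value lay below background, between 4.44 and 5.78. LY3201-treated MN had 5.44 and 5.73 in BERKO arrays, against 4.54 and 4.81 in WT arrays (0.91 ± 0.27, adjusted p = 0.0225), a call lost without WT replicate 1 (0.78, 0.127), WT replicate 2 (1.05, 0.0507) or BERKO replicate 2 (0.77, 0.162). Untreated MN had 5.37, 5.78 and 5.51 in BERKO arrays, against 4.44 and 5.7 in WT arrays. That difference of 0.48 ± 0.25 was not called (adjusted p = 0.192), and became 1.11 (adjusted p = 0.000797) without WT MN replicate 2. mESC values were 3.9 and 3.8 in BERKO and 4.04 and 3.79 in WT.

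Grm7 and Gria1 were below background on all 29 arrays, so their differences are given on the log2 scale with no fold. Grm7, a presynaptic group III receptor, was 5.81 and 5.8 in LY3201-treated BERKO mDPC, against 4.24 and 4.1 in LY3201-treated WT mDPC (1.63 ± 0.12, adjusted p = 1.37e-08). It was 5.29 and 5.74 in untreated BERKO mDPC, against 4.17 and 4.36 in untreated WT mDPC (1.25 ± 0.12, adjusted p = 5.73e-07). The lines did not overlap in mDPC, nor in MN. LY3201-treated MN had 4.8 and 4.84 in BERKO arrays, against 3.99 and 4.02 in WT arrays (0.82 ± 0.12, adjusted p = 9.3e-05), and untreated MN had 5.08, 5.13 and 5.1 in BERKO arrays, against 4.19 and 4.58 in WT arrays (0.72 ± 0.11, adjusted p = 9.78e-05). In NPC all 8 values lay between 3.79 and 3.87, and in mESC all 4 lay between 3.42 and 3.63. Gria1, a subunit prominent in forebrain synapses, spanned only 3.76 to 4.41 over the 29 arrays. Its one called difference was in untreated MN, at -0.30 ± 0.11 (adjusted p = 0.0478), and it was lost without WT replicate 2 (-0.18, adjusted p = 0.416) and without each single BERKO array (adjusted p 0.0568 to 0.12).

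**Figure D2:**
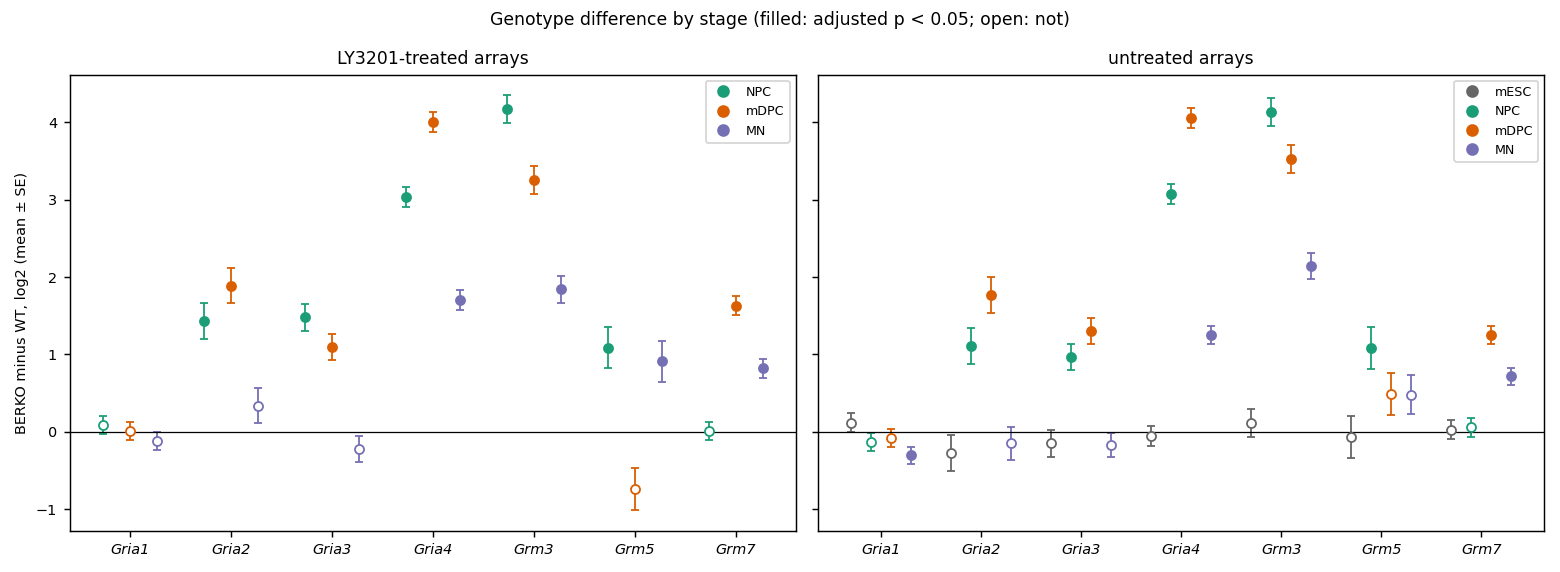
BERKO minus WT difference in log2 signal (mean ± SE) of each gene at each stage, in LY3201-treated arrays (left) and untreated arrays (right), filled where the adjusted p was below 0.05. Gria4 and Grm3 reached 4.01 and 4.17 in LY3201-treated arrays, and mESC differences lie between -0.27 and 0.12. The filled points of Gria4 and Grm3 in untreated NPC and mDPC are the values that chose these genes. Those in LY3201-treated NPC and mDPC are not independent of that choice.

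Other cell type markers moved with these differences. Oligodendrocyte precursor markers were called higher in BERKO for 4 of 7 genes with a row in LY3201-treated NPC, for 6 of 7 in mDPC and for 4 of 7 in MN, with none lower. Gjc3, a glial connexin, was higher by 5.18 ± 0.21 in LY3201-treated NPC (14.74 in BERKO, 9.55 in WT, adjusted p = 3.3e-12), and Olig2, a transcription factor of that lineage, by 1.82 ± 0.18 (15.82 in BERKO, 14 in WT, adjusted p = 8.05e-07). The mean over the 7 markers was 10.29 in both LY3201-treated BERKO NPC arrays, against 8.63 to 8.78 in WT arrays, and 10.92 to 10.94 in LY3201-treated BERKO mDPC, against 9.33 to 9.46 in WT. In LY3201-treated MN it was 8.79 to 8.91 in BERKO and 8.11 to 8.29 in WT. Untreated arrays gave 10.24 to 10.3 in BERKO NPC against 8.6 to 8.77 in WT NPC, 10.74 to 10.85 in BERKO mDPC against 9.16 to 9.31 in WT mDPC, and 9.0 to 9.15 in BERKO MN against 8.25 to 8.73 in WT MN. In untreated BERKO arrays 5 of 7 were called higher in NPC, 6 of 7 in mDPC and 3 of 7 in MN, where Gpr17, a receptor of the same lineage, was called lower (-0.85 ± 0.27, adjusted p = 0.031). Olig1 did not follow this pattern in precursors, and Cspg4 and Nkx2-2 were below background on every array. Sox10 was above background only on LY3201-treated BERKO mDPC replicate 2, at 7.29. In LY3201-treated and untreated mDPC of each line 4 of the 7 markers were above background on all arrays. Calls of Sox10, Cspg4 and Nkx2-2 therefore rest on values near or below background. Pdgfra had no single-symbol row.

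**Figure D3:**
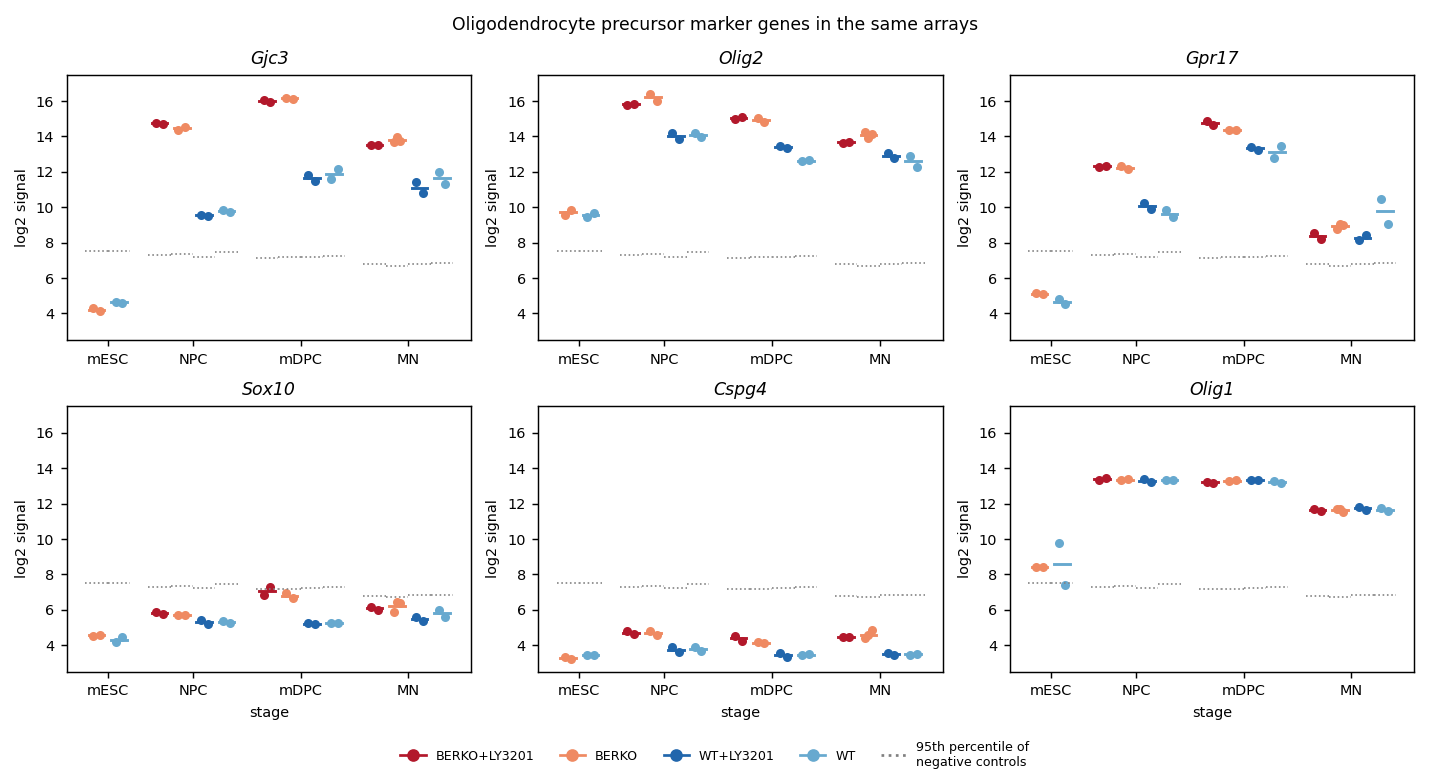
Log2 signal of 6 oligodendrocyte precursor markers in all 29 arrays, laid out by stage as for the receptor genes, with each point 1 array, each short line a group mean and dotted lines the mean 95th percentile of negative controls. Gjc3, Olig2 and Gpr17 show higher BERKO points in NPC and mDPC, Olig1 lies between 13 and 14 there in every group, and Cspg4 is below the dotted line throughout.

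Mesenchyme markers were called lower in BERKO for 5 of 5 genes in NPC and 5 of 5 in MN under both treatments, with list means of 5.48 to 5.64 in LY3201-treated BERKO NPC and 7.93 to 8.08 in WT NPC. In mDPC none of the 5 was called. Few of the 5 were above background on all arrays of a group: 2 in each WT NPC group, and 0 in each BERKO NPC group and each mDPC group. In MN it was 4 in untreated WT, 2 in LY3201-treated WT and 1 in each BERKO group. Astrocyte markers were called in both directions, 3 of 6 higher and 1 lower in LY3201-treated mDPC, with Gfap lower by 2.61 ± 0.22 and Aldh1l1 higher by 1.53 ± 0.09 in LY3201-treated BERKO mDPC (adjusted p = 4.19e-08 and 5.39e-10), Aldh1l1 at least 1.52-fold with WT below background. In LY3201-treated MN the astrocyte list means were 13.54 to 13.58 in BERKO and 12.94 to 13.1 in WT. In untreated MN they were 13.67 to 13.73 in BERKO and 12.84 to 12.96 in WT. Neuronal markers were called lower in BERKO MN for 7 of 8 genes in untreated arrays and for 2 of 8 in LY3201-treated arrays, none higher. Their list mean was 7.33 to 7.53 in untreated BERKO MN, against 7.86 in WT MN replicate 1 and 9.55 in WT MN replicate 2. In BERKO mDPC neuronal markers were called lower for 5 of 8 genes with LY3201 and 3 of 8 without, none higher, with list means of 7.07 to 7.11 in LY3201-treated BERKO mDPC and 7.92 to 7.93 in LY3201-treated WT mDPC, and of 7.06 to 7.12 in untreated BERKO mDPC and 7.77 to 7.78 in untreated WT mDPC. Ependymal markers were called higher for 2 of 3 genes in BERKO MN under both treatments (1 lower in untreated arrays), with list means of 6.25 to 6.45 in LY3201-treated BERKO MN and 4.97 to 5.11 in LY3201-treated WT MN, and of 6.4 to 6.73 in untreated BERKO MN and 4.95 to 5.14 in untreated WT MN. Oligodendrocyte markers were called lower for 2 of 5 genes in LY3201-treated BERKO MN, with list means of 6.89 to 6.99 in BERKO and 7.7 to 8.28 in WT. In untreated MN the oligodendrocyte list means were 6.95 to 7.64 in BERKO and 8.19 to 8.72 in WT. WT MN replicate 2 also had the higher Gria1, Gria2, Gria3, Gria4, Grm3, Grm5 and Grm7. The part of these markers in the receptor differences was not tested.

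Over the 14 groups the levels of a member were ordered, judged by whether the arrays of neighbouring groups overlapped. Groups could be linked in a chain by overlap, so single pairs within a chain can lie apart. For Gria4, mDPC BERKO (13.66 to 13.89 with and without LY3201) came first and NPC BERKO (12.99 to 13.11) second. MN BERKO (10.13 to 10.33), NPC WT (9.94 to 10.08) and mDPC WT (9.71 to 9.79) followed, then MN WT (8.44 to 9.32) and mESC (4.7 to 4.79). Within each of these pairs LY3201-treated and untreated groups overlapped, or touched in the case of mDPC WT, except in MN WT, where LY3201-treated arrays lay under the untreated ones. For Grm3, LY3201-treated mDPC BERKO (11 to 11.06) stood first, and NPC BERKO with untreated mDPC BERKO overlapped from 10.56 to 10.89. All WT groups and MN lay at 7.83 or less. For Gria2 the 4 BERKO precursor groups (8.85 to 9.5) came before all others, and untreated NPC WT had the next mean, at 7.84 to 7.92. After it 7 groups from NPC WT with LY3201 down to MN WT with LY3201 were linked by overlap between 6.36 and 7.91. The highest of these values, from untreated MN WT, lay within the range of untreated NPC WT. Gria3 had its highest means in the 4 NPC groups, from 11.94 to 12.38 in BERKO down to LY3201-treated WT, which overlapped untreated mDPC BERKO between 10.65 and 11.1. The 4 MN groups of Gria3 were linked by overlap from 9.82 to 10.4, above mDPC WT at 9.4 to 9.51. Among them untreated MN WT (10.16 to 10.4) lay above LY3201-treated MN BERKO (9.82 to 9.95). Grm5 was highest in NPC, from 10.05 and 10.06 in untreated BERKO down to 8.54 in WT, and its 4 MN groups were linked by overlap. With LY3201, its MN BERKO arrays (5.44 to 5.73) lay above its MN WT arrays (4.54 to 4.81). Grm7 and Gria1 were below background on every array, so no order is given for them.

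From mESC to NPC, Gria2, Gria3, Gria4, Grm3 and Grm5 rose in both lines, all from below background. In untreated BERKO cells 6 of 7 rose and none fell, where 27.7% of all genes rose and 35.9% fell, and in WT cells 6 rose and none fell, where 27.9% rose and 35% fell. Both counts include Gria4 and Grm3, chosen by untreated precursor values that enter this step. Gria3 rose by 6.36 ± 0.17 in BERKO and 5.24 ± 0.17 in WT, at least 25.2-fold and 12.8-fold (adjusted p = 5.57e-17 and 1.08e-15). Gria2 rose by 4.70 ± 0.23 in BERKO and 3.32 ± 0.23 in WT, at least 2.8-fold and 1.29-fold (adjusted p = 5.57e-13 and 1.3e-10). Grm5 rose by 6.21 ± 0.27 in BERKO and 5.06 ± 0.27 in WT, at least 5.85-fold and 2.76-fold (adjusted p = 7.24e-14 and 1.83e-12). The step was called in both lines for each of these. Grm7 rose by 0.34 ± 0.12 in BERKO and 0.31 ± 0.12 in WT (adjusted p = 0.0221 and 0.0359), below background at both stages. The BERKO call was lost without mESC BERKO replicate 2 (0.24, adjusted p = 0.19), NPC BERKO replicate 1 (0.35, 0.0684) or NPC BERKO replicate 2 (0.34, 0.0752), and the WT call without mESC WT replicate 1 (0.25, 0.186), NPC WT replicate 1 (0.29, 0.124) or NPC WT replicate 2 (0.33, 0.0811), which leaves 5 of 7 called. Gria1 was called in neither line. For Gria4 and Grm3 the untreated precursor arrays chose the genes, and their steps are given as values: Gria4 rose by 8.35 ± 0.13 in BERKO and 5.24 ± 0.13 in WT, and Grm3 by 7.19 ± 0.18 in BERKO and 3.18 ± 0.18 in WT, where it was below background at both stages.

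From NPC to mDPC, 2 members rose and 2 fell in BERKO (16.5% of all genes rose and 18.9% fell), and 2 rose and 2 fell in WT (14.6% rose and 15.8% fell). Gria4 is among the BERKO rises and Grm3 among the WT rises, and untreated precursor values that enter this step chose both. Grm5 fell by 2.96 ± 0.27 in BERKO and by 2.37 ± 0.27 in WT, and Gria3 fell by 1.45 ± 0.17 in BERKO and by 1.79 ± 0.17 in WT (adjusted p between 3.81e-08 and 1.64e-06). Grm7 rose by 1.65 ± 0.12 in BERKO and 0.46 ± 0.12 in WT (adjusted p = 2.71e-09 and 0.00812), the second lost without NPC WT replicate 2 (0.44, adjusted p = 0.0555) or mDPC WT replicate 2 (0.36, 0.101). Gria2 showed no called change in either line. Gria4 moved by 0.75 ± 0.13 in BERKO and -0.24 ± 0.13 in WT, and Grm3 by 0.12 ± 0.18 in BERKO and 0.72 ± 0.18 in WT. The WT value of Grm3, which is among the 2 WT rises counted, was 0.48 without NPC WT replicate 1 and 0.48 without mDPC WT replicate 1, and was then not called.

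From mDPC to MN, 6 of 7 members fell in BERKO and none rose, where 30.8% of all genes fell and 20.1% rose. In WT 3 fell and 1 rose, where 24.0% fell and 18.0% rose. The falls of both lines include Gria4 and Grm3, which were chosen by untreated precursor values that enter this step. Gria2 fell by 2.03 ± 0.21 in BERKO (adjusted p = 1.32e-07) and moved by -0.11 ± 0.23 in WT (adjusted p = 0.737), a WT value that became -0.62 (adjusted p = 0.0239) without MN WT replicate 2. Gria3 fell by 0.60 ± 0.16 in BERKO (adjusted p = 0.00382) and rose by 0.87 ± 0.17 in WT (adjusted p = 0.000417). Grm5 fell by 1.53 in both lines (SE 0.25 in BERKO and 0.27 in WT, adjusted p = 3.2e-05 and 0.000113), to values below background. In WT it was below background at both stages, and the fall was -0.90 (adjusted p = 0.00274) without MN WT replicate 1 and -2.16 (adjusted p = 2.36e-07) without MN WT replicate 2. With the compared groups alone the WT call was lost (adjusted p = 0.0512). Grm7 fell by 0.41 ± 0.11 in BERKO (adjusted p = 0.00512), a call lost without mDPC BERKO replicate 2 (-0.19, adjusted p = 0.219), and moved by 0.12 ± 0.12 in WT. Gria4 changed by -3.58 ± 0.12 in BERKO and -0.77 ± 0.13 in WT, and Grm3 by -3.74 ± 0.17 in BERKO and -2.35 ± 0.18 in WT. The WT value of Gria4 was -0.45 without MN WT replicate 1 and -1.09 without MN WT replicate 2.

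**Figure D4:**
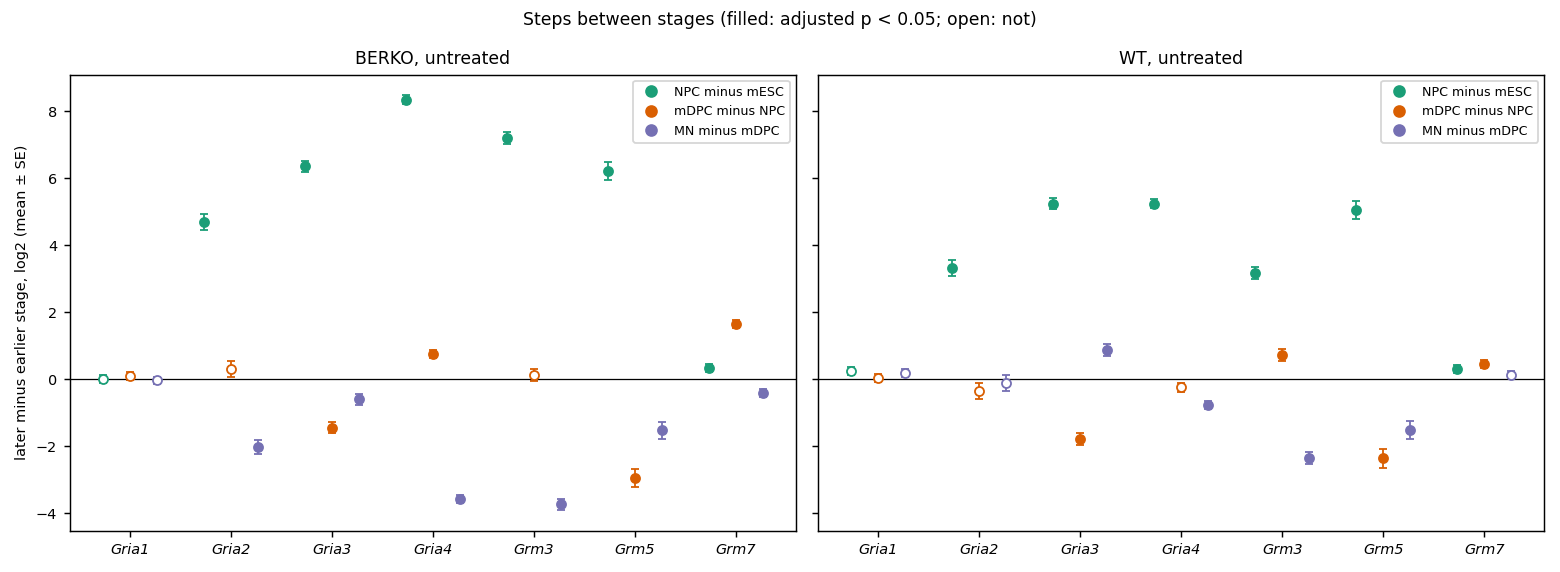
Later minus earlier stage in log2 signal (mean ± SE) for each gene in untreated BERKO (left) and untreated WT (right) arrays, filled where the adjusted p was below 0.05. The step from mESC to NPC was called upward for 6 of 7 genes in each line (27.7% of all genes in BERKO and 27.9% in WT). The step from mDPC to MN was called downward for 6 of 7 genes in BERKO (30.8% of all genes) and 3 of 7 in WT (24.0%). Each count includes Gria4 and Grm3, chosen by untreated precursor values that enter these steps. Grm7, in all but the last count, was below background on every array.

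The difference of the steps between the lines was tested directly, and consecutive steps share arrays. From mESC to NPC, 4 of 7 members rose more in BERKO and none less (6.35% of all genes called higher and 3.25% lower), among them Gria2 by 1.38 ± 0.33 (adjusted p = 0.0102) and Gria3 by 1.12 ± 0.25 (adjusted p = 0.006). From mDPC to MN, 5 of 7 moved further down in BERKO and none up (5.15% called lower and 7.31% higher), among them Gria2 with -1.92 ± 0.31 (adjusted p = 0.000286) and Gria3 with -1.48 ± 0.24 (adjusted p = 0.000231). From NPC to mDPC 2 of 7 rose more in BERKO and none less (3.68% called higher and 4.99% lower), with Grm7 at 1.20 ± 0.18 (adjusted p = 0.000164). All 3 counts include Gria4 and the first and last include Grm3, whose step differences hold the values that chose them. Grm5 showed no called step difference, with 1.15 ± 0.38 (adjusted p = 0.0659) from mESC to NPC and -0.01 ± 0.37 from mDPC to MN.

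LY3201 changed no member past the threshold. Of 42 effects within a stage and line, 0 were called by limma, 7 had an unadjusted p under 0.05 and the lowest adjusted p was 0.064. The shares of all genes called were 0 and 0.00453% in BERKO and WT NPC, 0.113% and 0.0635% in BERKO and WT mDPC, and 0.344% and 1.83% in BERKO and WT MN. The lowest adjusted p was that of Gria4 in WT MN, at -0.50 ± 0.13 with 8.44 and 8.56 in LY3201-treated arrays, against 8.68 and 9.32 in untreated arrays. Without WT MN replicate 1 this became -0.82 (adjusted p = 0.000386), and Gria2 (-1.16, adjusted p = 0.00476), Grm5 (-1.03, 0.0148) and Grm7 (-0.57, 0.032) were then also called lower. The untreated WT side is then only replicate 2, the array with the high neuronal markers, and its spread is taken to be that of the other groups. Grm5 in WT mDPC moved by 1.11 ± 0.27 (adjusted p = 0.123), with 7.63 and 7.79 in LY3201-treated arrays, against 6.89 and 6.31 in untreated arrays. The untreated arrays were below background, and against that level the LY3201-treated mean was 1.36-fold higher, with the spread of the arrays not counted. In BERKO mDPC Grm5 moved by -0.12 ± 0.27, and the difference between the lines was -1.23 ± 0.38 (adjusted p = 0.412). For Gria4 the 6 effects ran from -0.50 to -0.02, and their 95% intervals from -0.78 to 0.26. For Grm3 they ran from -0.23 to 0.47, with intervals from -0.58 to 0.86. Of the 21 differences of LY3201 effects between the lines 0 were called by limma, 3 had an unadjusted p under 0.05 and the lowest adjusted p was 0.261, where 0.499% of all genes were called in NPC, 0% in mDPC and 0.63% in MN. The genotype differences of Gria4 with LY3201 and without it differed by -0.03 ± 0.19 in NPC and -0.05 ± 0.19 in mDPC, and those of Grm3 by 0.04 ± 0.26 and -0.27 ± 0.26. In MN they differed by 0.45 ± 0.18 for Gria4, the lowest adjusted p of the 21, and by -0.30 ± 0.25 for Grm3. The MN value of Gria4 became 0.77 (adjusted p = 0.00695) without WT MN replicate 1 and 0.13 (adjusted p = 0.742) without WT MN replicate 2.

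**Figure D5:**
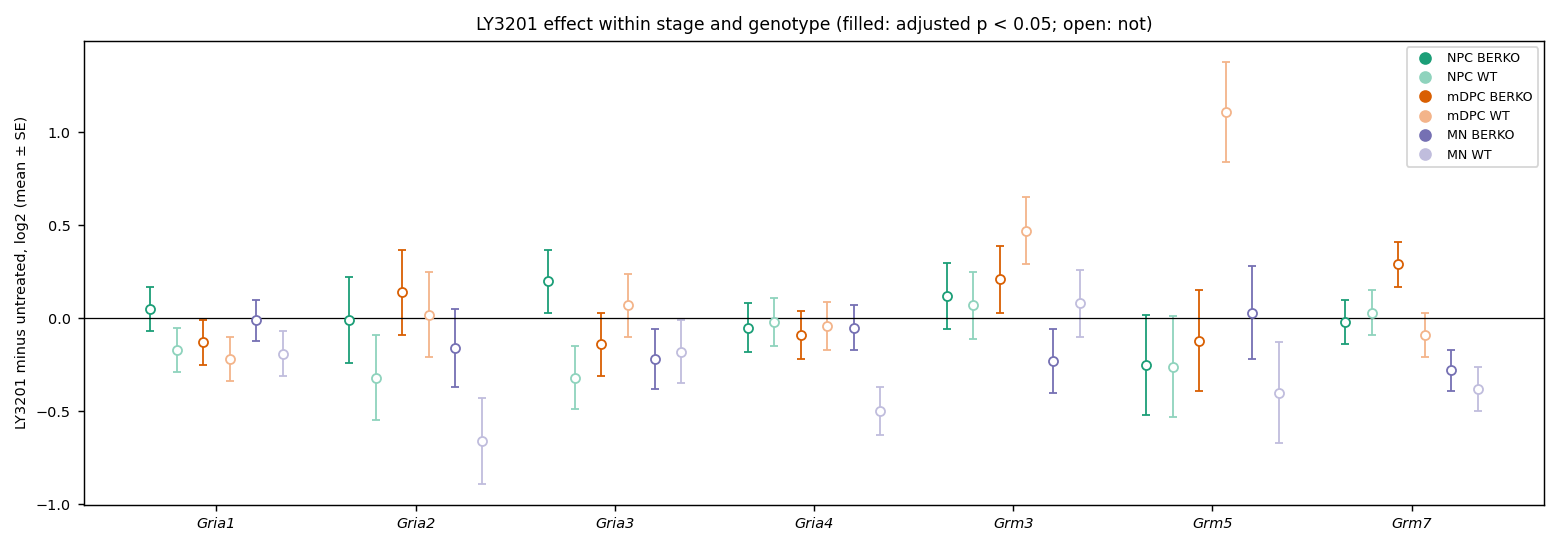
LY3201 minus untreated difference in log2 signal (mean ± SE) of each gene within each stage and line. All 42 points are open, none having an adjusted p below 0.05; Grm5 in WT mDPC lies highest at 1.11 and Gria2 in WT MN lowest at -0.66.

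Among the other ionotropic glutamate receptors (NMDA, kainate and delta subunits), 9 of 14 listed genes were tested, and 4 were called higher and 1 lower in LY3201-treated BERKO NPC. Grin3a, an NMDA receptor subunit, was higher by 2.42 ± 0.14 there (9.2 in BERKO, 6.78 in WT, adjusted p = 7.07e-10), by 2.02 ± 0.14 in LY3201-treated mDPC (10.13 in BERKO, 8.11 in WT, adjusted p = 4.65e-09) and by 1.02 ± 0.14 in MN (6.9 in BERKO, 5.88 in WT, adjusted p = 3.44e-05). Grin3a was below background in the WT NPC and WT MN arrays, so these stand for at least 3.96-fold and 1.06-fold. The kainate receptor subunit Grik3 was higher by 1.82 ± 0.09 in NPC (8.02 in BERKO, 6.2 in WT, adjusted p = 9.35e-11), at least 1.75-fold with WT below background. In LY3201-treated mDPC Grik3 differed by -0.12 ± 0.09 and was not called (adjusted p = 0.473). Grik2, also a kainate receptor subunit, changed by -1.38 ± 0.13 in mDPC (7.94 in BERKO, 9.32 in WT, adjusted p = 3.61e-07). Their list had 1 higher and 1 lower in LY3201-treated mDPC and 3 higher and none lower in MN. Grin2b, an NMDA receptor subunit, changed by -1.17 ± 0.32 in LY3201-treated NPC (3.32 in BERKO, 4.49 in WT, adjusted p = 0.0245), both groups below background. The median difference of the 9 was 0.25 in NPC, 0 in mDPC and 0.16 in MN. Of the 4 metabotropic receptors outside the members 1 was tested, and it was called in no genotype comparison.

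AMPA receptor auxiliary and assembly genes, 15 of which were tested, did not move as a group. In LY3201-treated BERKO arrays 3 were called higher and none lower in NPC, 1 higher and 3 lower in mDPC, and 2 higher and 2 lower in MN, with median differences of 0.09, -0.02 and -0.08. Cacng4, a TARP that carries AMPA receptors to the surface, was higher by 0.90 ± 0.27 in NPC (10.23 in BERKO, 9.33 in WT, adjusted p = 0.0362). Gsg1l, which slows recovery of the channel, changed by -2.56 ± 0.18 in mDPC (4.61 in BERKO, 7.17 in WT, adjusted p = 5.08e-09). The BERKO arrays of Gsg1l were below background and 1 of the 2 WT arrays above it, so no least fold is given. Shisa9, a further auxiliary subunit, was higher by 0.77 ± 0.16 in MN (7.84 in BERKO, 7.08 in WT, adjusted p = 0.00228). Of 22 scaffold and synapse organiser genes tested, 2, 3 and 3 were called higher and 1, 0 and 3 lower in LY3201-treated NPC, mDPC and MN. Lrrtm2, a synaptic adhesion protein, was higher by 1.79 ± 0.25 in MN (8.89 in BERKO, 7.1 in WT, adjusted p = 3.84e-05), with 1 of the 2 WT arrays above background.

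Among 10 genes of metabotropic receptor signalling tested, Gnao1, a G protein alpha subunit, was called lower in BERKO at all 3 stages with LY3201, with differences of -1.27 ± 0.18 in NPC, -1.40 ± 0.18 in mDPC and -1.02 ± 0.18 in MN (adjusted p = 4.72e-05, 9.51e-06 and 0.000337). Rgs4, which shortens G protein signals, was higher by 1.38 ± 0.20 in mDPC and 1.12 ± 0.20 in MN (adjusted p = 5.54e-05 and 0.000523), both lines being below background in mDPC. The whole list had 3 higher and 1 lower in NPC, 2 higher and 1 lower in mDPC, and 1 higher and 4 lower in MN. Of 3 genes of the RNA editing family that includes the editor of Gria2 transcripts, none was called higher, and Adarb2, not known as an active editor, was called lower in LY3201-treated NPC (-0.77 ± 0.17, adjusted p = 0.00459) and mDPC (-0.91 ± 0.17, adjusted p = 0.000679). Both lines were below background in NPC, and the BERKO line was in mDPC, where the WT level of Adarb2 was at least 1.02-fold higher. Of 5 glutamate transport and metabolism genes tested, Slc1a1, a glutamate uptake transporter, was higher in BERKO by 1.31 ± 0.17 in NPC, 2.46 ± 0.17 in mDPC and 1.43 ± 0.17 in MN with LY3201 (adjusted p = 2.06e-05, 3.12e-09 and 4.82e-06). Both lines were below background in NPC, and WT was in mDPC and MN, where the Slc1a1 difference stands for at least 4.82-fold and 1.27-fold. Slc1a2, the main astrocytic transporter, changed by -1.14 ± 0.13 in NPC and -1.95 ± 0.13 in MN (adjusted p = 3.97e-06 and 2.05e-09).

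Genes with a pattern most like each member were found by Pearson r over the 14 group means among 5328 genes whose means spanned at least 2 on the log2 scale. Since groups share stage and line, r is a description only. For Gria4 they were C1ql3 (0.989), Gatm (0.983), Gria2 (0.983), Irx2 (0.973) and Tox (0.97), and for Grm3 Slitrk6 (0.983), Tox (0.979), Opcml (0.979), B3gat2 (0.972) and Grin3a (0.967). Tox stands in both lists. For Gria2 they were Gatm (0.991), Gria4 (0.983), Anks1b, C1ql3 and Ntrk3 (0.977 each). Those for Gria3 began with Fbxw5 (0.983) and Prkar2b (0.976), for Grm5 with Rev3l (0.988) and Prex1 (0.986), and for Grm7 with Mgll (0.984) and Ntm (0.97). Gria1, which hardly varied, reached 0.831 with Pcp4 and 0.793 with the neuronal marker Snap25.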

How the data were processed

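RNA of 29 samples was measured on Clariom D (MTA 1.0) arrays. Per the labels, the authors deposited log2 expression values made by SST-RMA in Affymetrix Expression Console 1.4 (the submitters' processing notes further list RMA and Transcriptome Analysis Console). The genome build behind the clusters is not given in the sources used here. The deposited log2 values were used as given. Of 65956 transcript clusters, 30604 carried 1 gene symbol (827 updated through the gene ID), 2146 several and 33206 none. Where a gene had several clusters, the one with the highest mean was used. A gene entered the tests if its signal passed the median cluster of the array on 2 or more arrays (22063 genes).

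limma 3.58.1 in R 4.3.3 fitted 1 mean per group to all arrays (15 residual degrees of freedom, prior 3.303). Each of 25 contrasts was adjusted by Benjamini-Hochberg over all genes tested, 2-sided, with a threshold of 0.05. All adjusted p-values come from this limma fit. The script was tested on simulated data. Pairs of arrays within a group correlated at 0.994 to 0.999 over the genes tested. The labels give no slide or batch, and depth on arrays is limited by their number. Alternatives were other filters, quantile normalization, a trended robust prior, the compared groups alone, averaging of same-number arrays, and leaving out single arrays.

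Members and gene lists were chosen with earlier results of these data known. Named genes were all members, at most 3 called genes of each list with the largest change per comparison, and the 5 most alike genes per member. Promoter windows came from RefSeq (GRCm38.p6). Figures were drawn with matplotlib 3.10.9.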

Additional observations from a re-analysis of the deposited data

Results flagged for a closer look

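The following results were picked out because the step between consecutive untreated stages differed between BERKO and WT by a direct test in limma; values are the BERKO step minus the WT step on the log2 scale. From mESC to NPC the difference was 1.38 for Gria2, 1.12 for Gria3, 3.11 for Gria4 and 4.01 for Grm3. From NPC to mDPC it was 0.99 for Gria4 and 1.2 for Grm7. From mDPC to MN it was -1.92 for Gria2, -1.48 for Gria3, -2.81 for Gria4, -1.38 for Grm3 and -0.53 for Grm7. For Gria4 and Grm3 these differences contain the untreated precursor values that chose the genes, so they are descriptions there. Steps that meet at a stage share its arrays, so a high BERKO value in NPC or mDPC enters adjacent differences with opposite signs. That of Grm7 from mDPC to MN lay close to the threshold (adjusted p = 0.0462), with both lines below background, and was lost when single arrays were left out, for example -0.30 (adjusted p = 0.285) without mDPC BERKO replicate 2.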

How the results depend on the processing

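Of 1928 member differences under the alternatives, 1872 stayed on their side of the threshold, 75 of them with the other sign and called in neither setting. A further 43 lost a call and 13 gained one, and none that was called changed sign. The count of members called differed from the reported one in 50 of 279 cases, in 49 of them by 1, and by over 1.5 times in 3: LY3201 in WT MN gave 1 under the stricter filter, where the reported count was 0, and 0 to 4 with single arrays left out (4 without MN WT replicate 1), and the LY3201 effect difference in MN gave 0 to 1 (1 without MN WT replicate 1). The calls of Gria4 and Grm3 in LY3201-treated arrays held in each alternative run. With the compared groups alone, Gria3's step difference from mESC to NPC gave an adjusted p of 0.0501, and Grm5 in LY3201-treated mDPC 0.0268. With same-number arrays averaged, Grm5 in LY3201-treated NPC gave 0.0776. Gria1's call in untreated MN was lost without the filter (0.061), with quantile normalization (0.168), the trended robust prior (0.0515), the compared groups alone (0.144) and same-number arrays averaged (0.059). The cause of these changes was not tested, beyond fewer arrays or other genes in the fit.

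Counts over all genes moved more. With the compared groups alone, the genotype count was 157 in untreated mESC against 929 reported, 2297 against 4584 in untreated MN, and with LY3201 1499 against 2287 in NPC, 1729 against 3383 in mDPC and 1153 against 4322 in MN. The step difference from mDPC to MN gave 1617 against 2749. Averaging same-number arrays gave 335 in mESC and 1310 in LY3201-treated NPC. LY3201 counts were unstable. In BERKO they were 0 in NPC (3 with same-number arrays averaged), 25 in mDPC (0 with the compared groups alone) and 76 in MN (32 with quantile normalization, 0 with the compared groups alone). In WT they were 1 in NPC (8 with the stricter filter), 14 in mDPC (1 without the filter) and 403 in MN (245 with quantile normalization, 0 with the compared groups alone). The effect differences called 110 genes in NPC (0 with quantile normalization, 265 with the stricter filter), 0 in mDPC (2 with quantile normalization) and 139 in MN (7 with quantile normalization, 247 with the stricter filter).

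Quantile normalization also moved the split of higher against lower calls: 1316 and 1650 in untreated NPC against 2334 and 1120 reported, 1988 and 1385 in LY3201-treated mDPC against 1595 and 1788, 2723 and 1607 in LY3201-treated MN against 1987 and 2335, 999 and 1009 for the step difference from mESC to NPC against 1401 and 718, 1047 and 820 from NPC to mDPC against 812 and 1102, and 158 and 87 for LY3201 in WT MN against 343 and 60. No paired analysis was possible because the labels give no replicate numbers shared between groups. Another cluster per gene could not be tried, since each member had 1. Signal near or below the negative controls limits all members in mESC, Gria1 and Grm7 throughout, and Gria2 in WT mDPC and WT MN. It also limits Grm3 in WT NPC, WT mDPC and MN, and Grm5 in mDPC and MN.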
